A study of Mus musculus with 6 samples.

Results

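Actin forms the core of the thin filament of muscle and tropomyosin lies along it, together with troponin and other proteins, and actins and tropomyosins are each encoded by several genes. The 10 genes examined here are the 6 actin genes, Acta1, Actc1, Acta2, Actg2, Actb and Actg1, and the 4 tropomyosin genes, Tpm1, Tpm2, Tpm3 and Tpm4. They were chosen by their gene names, among 55421 genes in the count table, and all 10 were among the 18140 genes with enough counts to be tested. RNA was measured in 6 RNA-seq libraries of total RNA from a mouse cell model of myotonic dystrophy type 1 (DM1), on day 4 of differentiation. DM1 is a muscle disease caused by an expanded CTG repeat that is transcribed into CUG-repeat RNA. The cells of both groups were C2C12 myoblasts, a mouse muscle precursor line, that stably carried a GFP plasmid with a long CUG repeat (CUG200). The control group (CUG200-ctrl, 3 libraries) had the empty vector in addition, and the miR-322/-503 group (CUG200-m, 3 libraries) overexpressed miR-322 and miR-503 from the same vector backbone. Each group was a drug-selected stable cell line, so a difference between the lines and an effect of the microRNAs cannot be told apart. The study's methods state in general that assays had biological and technical replicates, but neither they nor the labels say which kind the 3 libraries of a group are. The p-values measure only the spread between these libraries, which may be technical.

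Actin monomers polymerize into filaments, and tropomyosin dimers lie along these filaments and set how myosin and other proteins reach them. Acta1 and Actc1 encode the sarcomeric actins of skeletal and cardiac muscle, and Actc1 is also active in young skeletal muscle. Acta2 and Actg2 encode the smooth muscle actins, and Acta2 is also switched on transiently in differentiating myoblasts. Actb and Actg1 encode the cytoplasmic actins present in nearly all cells. Tpm1, Tpm2 and Tpm3 each give muscle and non-muscle proteins by alternative promoters and splicing, whereas Tpm4 gives mainly non-muscle tropomyosin in mouse cells.

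The overexpressed microRNAs have similar but not identical seeds. Their mature sequences are shown because the seed, bases 2 to 8 from the 5′ end and printed in capitals, sets which transcripts they can pair with (RefSeq, GRCm38.p6, both on the minus strand of chromosome X, at chrX:53054306-53054327 for miR-322 and chrX:53054027-53054049 for miR-503).
mmu-miR-322-5p: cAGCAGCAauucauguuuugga
mmu-miR-503-5p: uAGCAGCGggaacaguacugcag
The DNA complements of the seeds, TGCTGCT for miR-322 and CGCTGCT for miR-503, were searched in the longest 3′ UTR of each gene in GENCODE M21. Of the 20657 genes with a 3′ UTR of at least 50 bases, 20.6% held the first and 4.0% the second. Among the 10 actin and tropomyosin genes only Tpm2 held a match, 1 of the miR-322 kind, shown here with its flanks and with the match in capitals (chr4:43514873-43514879, minus strand, from base 1042 of a 3′ UTR of 1210 bases).
Tpm2 3′ UTR: acctcaccTGCTGCTtcccctca
In the longest 3′ UTRs of the other 9 genes, which ran from 80 bases in Actg2 to 1899 bases in Tpm1, neither word was present. A match is a description of these letters and was not tested as a site. The libraries did not measure the mature microRNAs, and the microRNA genes themselves had too few counts to be tested: control and overexpressing libraries held 1, 7 and 2 against 17, 0 and 3 counts of Mir322, and 1, 1 and 2 against 6, 4 and 5 counts of Mir503.

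The smooth muscle actins were the members that differed most between the groups. Acta2 RNA was 2.16-fold lower and Actg2 RNA 9.33-fold lower in the miR-322/-503 cells, while the sarcomeric actins Acta1 and Actc1 and the cytoplasmic actins Actb and Actg1 did not pass the test. Tpm1 and Tpm4 were also lower, by smaller amounts, and Tpm2 and Tpm3 did not pass. Of the 10 genes, 0 were called higher and 4 lower by edgeR's quasi-likelihood test (adjusted p under 0.05, Benjamini-Hochberg over all tested genes), where 13.2% of all tested genes were called higher and 15.5% lower. The log2 fold changes of Acta2 and Actg2 lay below -1 as well. Of all tested genes, 5.29% were both called lower and below -1. The median log2 fold change (miR-322/-503 over control) was -0.17 over the 10 genes and -0.01 over all tested genes. In CPM (counts scaled to library size), the groups did not overlap for 5 of the 10 genes, the 4 called ones and Actg1, against 45.1% of all tested genes.

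**Figure D1:**
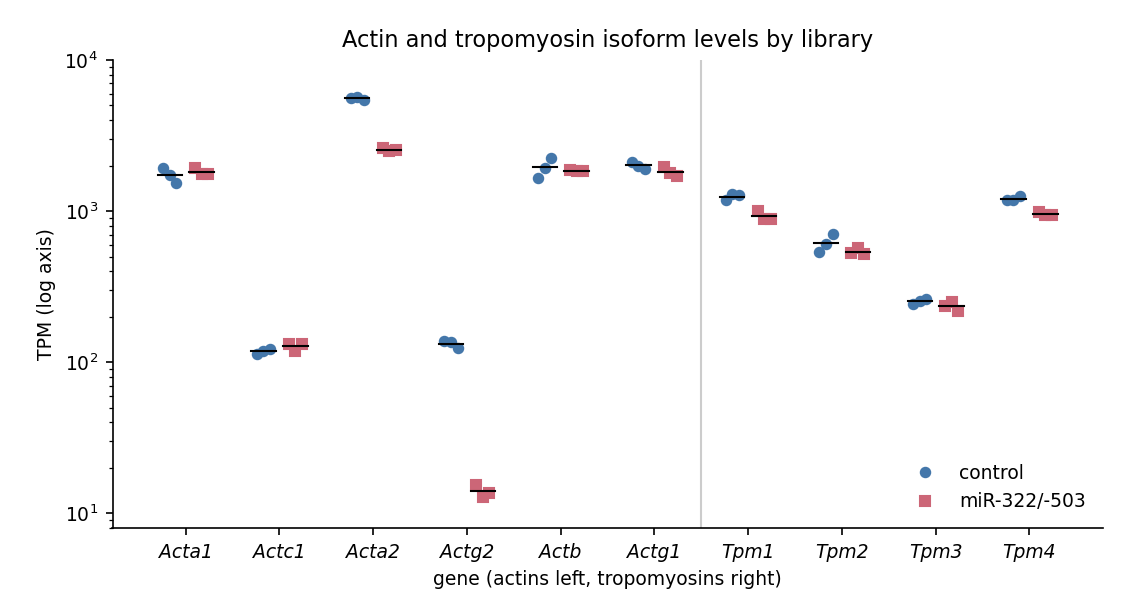
Level of each gene in each library in TPM (a length-scaled level, log axis), with control libraries as circles, miR-322/-503 libraries as squares and group means as black lines. Acta2 and Actg2 show a wide gap between the groups, Tpm1 and Tpm4 a narrow one, and the points of the other genes overlap.

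Acta2 (ENSMUSG00000035783, chr19:34241090-34255590, minus strand, GRCm38) was the most abundant of the 10 genes in both groups. Levels are given in TPM, which is scaled to transcript length and can be set side by side between genes. Acta2 stood at 5600, 5698 and 5470 TPM in the control libraries and at 2621, 2483 and 2530 TPM in the miR-322/-503 libraries. Every control library was thus above every miR-322/-503 library, with a gap far wider than the spread within a group. From the counts, the level was 5972 ± 147 CPM (SD, n = 3) in the control and 2759 ± 122 CPM in the miR-322/-503 group, and the log2 fold change was -1.11 with a standard error of 0.047 (95% interval -1.22 to -1.004, edgeR adjusted p = 5.70e-06). Ranked by mean TPM among all genes, Acta2 was number 20 in the control and number 31 in the miR-322/-503 cells. As low a log2 fold change as that of Acta2 was found in 1197 tested genes, 6.60% of them.

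Actg2 (ENSMUSG00000059430, chr6:83512905-83536265, minus strand) encodes the smooth muscle actin known from the gut wall. It was a minor transcript in these cells, at 138.0, 136.0 and 123.7 TPM in the control libraries and 15.5, 12.8 and 13.7 TPM in the miR-322/-503 libraries. The groups were widely separated, and the lowest library still held 667 estimated counts. The mean fell from 92.6 ± 5.31 to 9.91 ± 0.922 CPM, with a log2 fold change of -3.22 and a standard error of 0.092 (95% interval -3.44 to -3.01, edgeR adjusted p = 1.19e-06). By mean TPM, Actg2 moved from rank 1076 to rank 7919. A log2 fold change as low as this was found in 1.27% of tested genes, 231 in all.

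The sarcomeric actins did not pass the test in either direction. Acta1 (ENSMUSG00000031972, chr8:123891769-123894751, minus strand), the main actin of adult skeletal muscle, had 1926, 1730 and 1533 TPM in the control and 1924, 1760 and 1773 TPM in the miR-322/-503 libraries. The 3 miR-322/-503 values lay inside the control range, and the 95% interval of the log2 fold change ran from -0.10 to 0.28 (estimate 0.09, edgeR adjusted p = 0.465). Actc1 (ENSMUSG00000068614, chr2:114047282-114053548, minus strand) was a minor transcript beside it, at 113.3, 118.4 and 122.9 TPM against 132.6, 118.4 and 132.6 TPM. Its groups overlapped at 118.4 TPM, and its log2 fold change was 0.13 (95% interval -0.06 to 0.32, edgeR adjusted p = 0.273). Acta1 made up 93.5% ± 0.933 of the summed TPM of these 2 genes in the control and 93.4% ± 0.346 in the miR-322/-503 cells, so the ratio of skeletal to cardiac actin differed by less than the spread between libraries.

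The cytoplasmic actins likewise did not pass. In TPM, Actb (ENSMUSG00000029580, chr5:142903115-142906754, minus strand) varied widely among the control libraries, at 1667, 1930 and 2260, and little among the miR-322/-503 libraries, at 1862, 1849 and 1837. In CPM this contrast was small, and Actb stood at 1681 ± 151 in the control and 1710 ± 110 in the miR-322/-503 group. Its log2 fold change was 0.02 (95% interval -0.16 to 0.21, edgeR adjusted p = 0.860), and its sign turned when control replicate 1 was left out (-0.05). The median of chromosome 5 was 0.17, and the change of Actb less that median was -0.14. Actg1 (ENSMUSG00000062825, chr11:120345690-120348542, minus strand) had 2122, 2000 and 1910 TPM in the control and 1956, 1790 and 1708 TPM in the miR-322/-503 libraries. The TPM values of Actg1 overlapped although its CPM values did not, and its log2 fold change of -0.14 had a 95% interval of -0.27 to -0.01 and an edgeR adjusted p of 0.0981. Within the cytoplasmic pair, Actb held 49.1% ± 5.10 of the TPM in the control and 50.5% ± 1.55 in the miR-322/-503 cells.

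**Figure D2:**
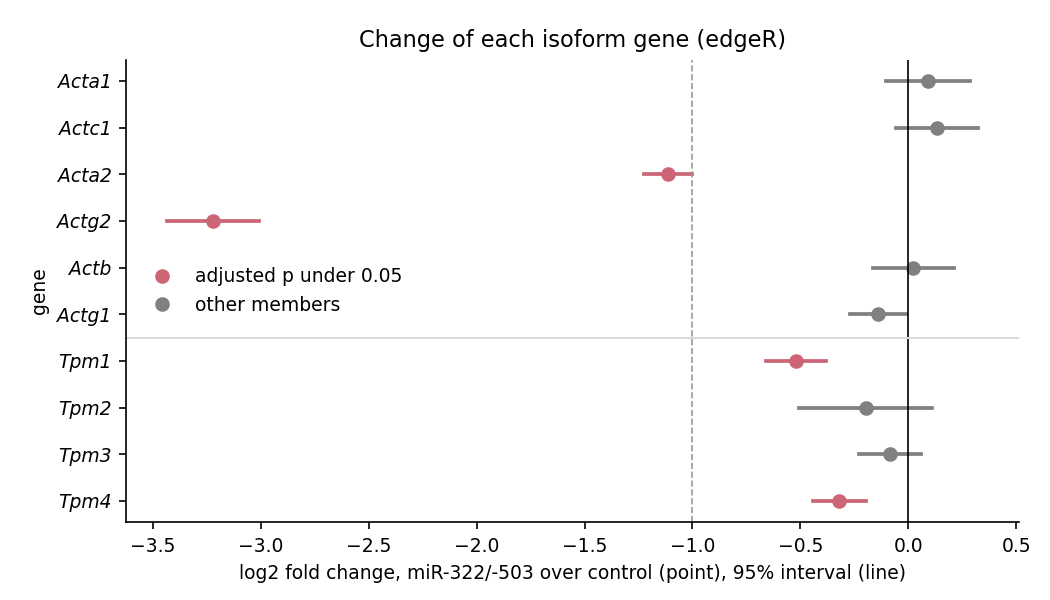
Log2 fold change of each gene (miR-322/-503 over control, points) with its 95% interval (lines), by edgeR on the estimated counts, with the dashed line at -1. The intervals of Actg2, Acta2, Tpm1 and Tpm4 lie below 0 and these genes pass the test, and the interval of Acta2 reaches from -1.22 to -1.004.

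The makeup of the actin pool changed with the smooth muscle isoforms. The 6 actin genes summed to 11566, 11612 and 11419 TPM in the control libraries and to 8511, 8013 and 7994 TPM in the miR-322/-503 libraries, and these sums did not overlap. Without Acta2 and Actg2 the sums were 5811 ± 28.1 and 5614 ± 228 TPM and overlapped. Acta2 and Actg2 together held 49.6% ± 0.629 of actin TPM in the control and 31.3% ± 0.443 in the miR-322/-503 cells. The share of the sarcomeric pair was 17.6%, 15.9% and 14.5% in the control libraries and 24.2%, 23.4% and 23.8% in the miR-322/-503 libraries. The sarcomeric share was therefore higher in every miR-322/-503 library, by 7.80 percentage points in the mean, although neither Acta1 nor Actc1 was called higher. The share of the 4 muscle-type actins, sarcomeric and smooth muscle together, was 65.6% ± 1.93 in the control and 55.1% ± 0.532 in the miR-322/-503 cells, and the cytoplasmic share was 34.4% and 44.9%. These shares of a common total are descriptions with no test, since a fall in 1 isoform raises the share of all others.

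**Figure D3:**
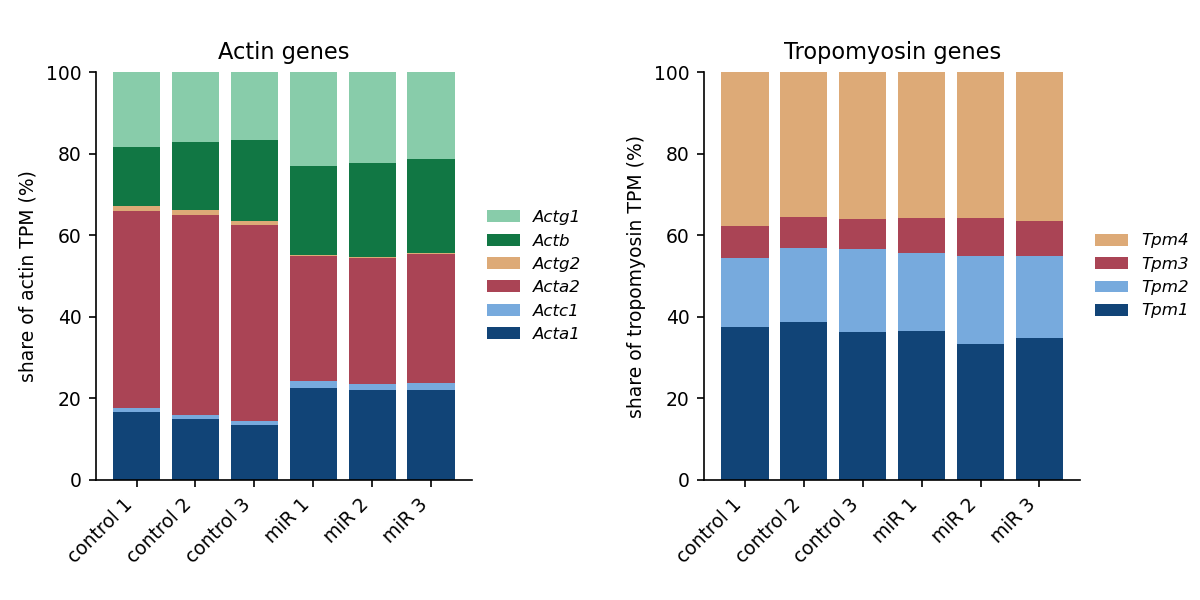
Share of each actin gene in the summed TPM of the 6 actin genes (left) and of each tropomyosin gene in that of the 4 tropomyosin genes (right), in percent, as 1 stacked bar per library (miR, miR-322/-503). Acta2 shrinks from 48.5% to 31.1% in the mean while the tropomyosin bars keep a similar partition.

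The order of the actin levels was otherwise similar in both groups. In the control, Acta2 came first, then Actg1, Actb and Acta1, whose ranges overlapped with their neighbours, then Actg2 (123.7 to 138.0 TPM) just above Actc1 (113.3 to 122.9 TPM). In the miR-322/-503 cells, Acta2 was still first and clear of Actb, Acta1 and Actg1, which overlapped again. Actc1 (118.4 to 132.6 TPM) then stood well above Actg2 (12.8 to 15.5 TPM), so the last 2 actins had traded places.

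Tpm1 was the tropomyosin gene with the largest change before chromosome medians were subtracted. Tpm1 (ENSMUSG00000032366, chr9:67022590-67049406, minus strand), the source of the alpha-tropomyosin of fast muscle and of several non-muscle forms, had 1178, 1291 and 1269 TPM in the control and 1006, 884 and 891 TPM in the miR-322/-503 libraries. All miR-322/-503 libraries were below all control libraries. In counts, Tpm1 went from 1120 ± 41.6 to 781 ± 41.5 CPM, with a log2 fold change of -0.52 and a standard error of 0.060 (95% interval -0.66 to -0.38, edgeR adjusted p = 6.25e-04). The median log2 fold change of the 1014 tested genes on chromosome 9 was -0.27, and the change of Tpm1 less that median was -0.25. The part of this chromosome-wide shift in the change of Tpm1 was not tested.

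Tpm4 (ENSMUSG00000031799, chr8:72130174-72153142, plus strand) was about as abundant as Tpm1. It had 1192, 1178 and 1262 TPM in the control libraries and 990, 946 and 938 TPM in the miR-322/-503 libraries, again with no overlap. The log2 fold change was -0.32 with a standard error of 0.053 (95% interval -0.44 to -0.19, edgeR adjusted p = 0.00369). The median of chromosome 8 was -0.03, and the change of Tpm4 less that median was -0.285, against -0.251 for Tpm1 less its own. Tpm1 and Tpm4 overlapped in level in each group and stood above Tpm2 and Tpm3.

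Tpm2 and Tpm3 did not pass the test. Tpm2 (ENSMUSG00000028464, chr4:43514711-43523765, minus strand), which encodes beta-tropomyosin and holds the seed match shown above, had 537, 602 and 709 TPM in the control and 529, 571 and 518 TPM in the miR-322/-503 libraries. The control libraries spread over a wide range, with 1 miR-322/-503 value inside it and the other 2 just below, and the log2 fold change was -0.20 (95% interval -0.51 to 0.11, edgeR adjusted p = 0.318). Without control replicate 3 it was -0.03. The median of chromosome 4 was -0.185, and the change of Tpm2 less that median was -0.01. Tpm3 (ENSMUSG00000027940, chr3:90072649-90100902, plus strand), the source of slow-muscle tropomyosin and of widespread non-muscle forms, had 242, 255 and 260 TPM against 237, 252 and 220 TPM. Its log2 fold change was -0.08 (95% interval -0.23 to 0.06, edgeR adjusted p = 0.362). The 4 genes together summed to 3325 ± 175 TPM in the control and 2660 ± 98.3 TPM in the miR-322/-503 cells, with no overlap. Of the shares within the family, only that of Tpm3 did not overlap between the groups, at 7.60% ± 0.145 and 8.88% ± 0.537.

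The muscle and non-muscle products of the tropomyosin genes cannot be separated in values per gene. The mean transcript length behind a gene's counts, obtained from its count and its FPKM (a fragment count scaled to length and depth) and scaled on genes with 1 annotated transcript, gives a partial view of the transcripts used. For Tpm1 this length was 1747, 1676 and 1699 bases in the control libraries and 1550, 1591 and 1602 bases in the miR-322/-503 libraries. The groups did not overlap, and the mean dropped by 126.5 bases in the miR-322/-503 cells. For comparison, the 21 transcripts of Tpm1 in GENCODE M21 run from 649 to 2890 bases. The shorter mean length also makes the fall of Tpm1 smaller per length than in counts, at -0.43 on the log2(TPM + 1) scale (limma adjusted p = 0.0129). Among the other 9 genes the lengths of the groups overlapped, and they spread most within groups for Actb, at 1646 ± 121 and 1732 ± 95.9 bases. Which transcripts made up the difference in Tpm1 is not resolved by these values.

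**Figure D4:**
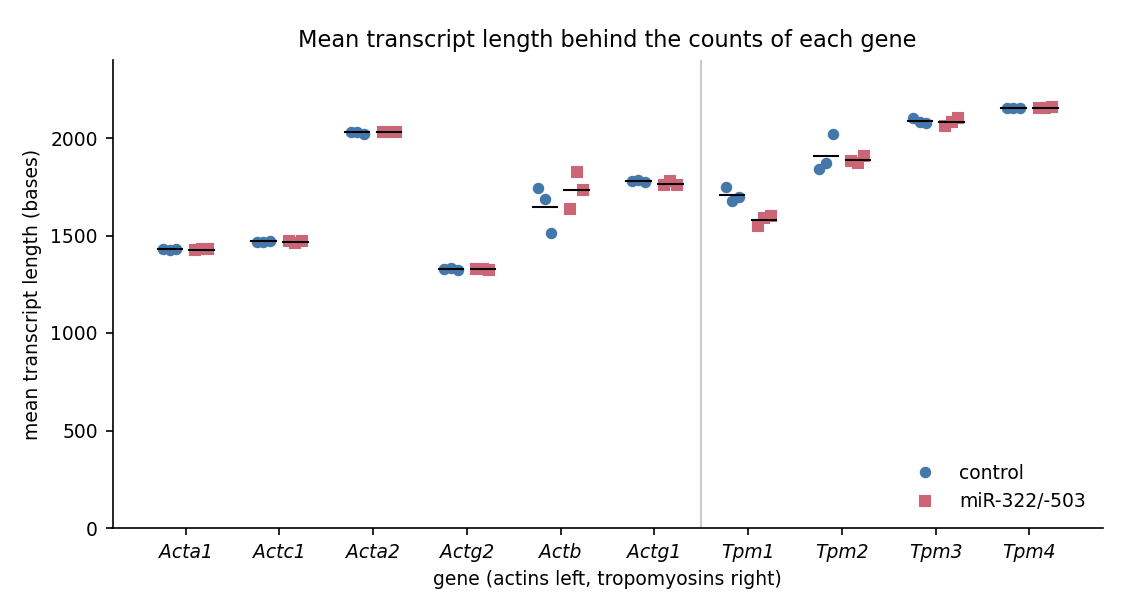
Mean transcript length in bases behind the counts of each gene, per library (circles, control; squares, miR-322/-503; black lines, group means). Only the points of Tpm1 separate by group, at 1676 to 1747 bases and 1550 to 1602 bases, and those of Actb scatter in both groups.

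Actin proteins are nearly alike, and reads from near-identical transcripts can be assigned to the wrong gene. Among all 150-base windows of the longest annotated coding transcript, 0 were found in a transcript of another gene for Acta1, Actc1, Acta2, Actg2, Actb, Tpm1 (in the transcript with its longest 3′ UTR) and Tpm2. The share was 43.5% for Actg1, 32.2% for Tpm3 and 5.31% for Tpm4. The Actg1 windows were found in the pseudogenes Gm12715, Gm8399 and Gm16385, and Gm12715 carried 20518 to 27611 counts per library against 124485 to 170386 for Actg1. The split of reads between these copies makes the level of Actg1 uncertain, and likewise that of Tpm3, whose copy Tpm3-rs7 carried 1862 to 2565 counts against 19428 to 24207. The sources do not say whether the libraries kept strand. Tpm4 is overlapped on the other strand by Gm26586 and Gm16091, which held at most 118 and 587 counts, and the genes on the other strand of Acta1 and Actc1 held at most 3.

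Actin genes are textbook targets of serum response factor (SRF), which binds the CArG box, the letters CC, then 6 bases that are each A or T, then GG. This motif reads the same way on both strands. It was searched in the 250 bases before the start site in RefSeq promoters (GRCm38.p6), where 8 of the 10 genes were matched, all but Actg2 and Actb. Of 32851 promoters, 1.47% held an exact match and 18.6% held a match with at most 1 mismatch. An exact match was present in Acta1, Actc1 and Actg1, which did not pass the expression test. Acta2, which fell, had no exact match but had 2 with 1 mismatch, starting 84 and 34 bases before the start site. Inexact matches were not particular to Acta2. With up to 1 mismatch, Actc1 held 4 matches, Acta1 held 3 and Actg1 held 1. The Acta2 match at 84 bases has the same letters, CCCTATATGG, as an Actc1 match at 175 bases. The last 130 bases before the start site are shown for these 4 genes because they hold an exact match or, in Acta2, the smooth muscle actin that fell, inexact ones, with exact matches in capitals for the first 3 and matches with 1 mismatch in capitals for Acta2 (all on the minus strand, at chr8:123894776-123894905 for Acta1, chr2:114052876-114053005 for Actc1, chr11:120348496-120348625 for Actg1 and chr19:34255374-34255503 for Acta2).
Acta1: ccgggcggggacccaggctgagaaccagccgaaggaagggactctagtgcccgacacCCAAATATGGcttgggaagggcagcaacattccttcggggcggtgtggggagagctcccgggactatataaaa
Actc1: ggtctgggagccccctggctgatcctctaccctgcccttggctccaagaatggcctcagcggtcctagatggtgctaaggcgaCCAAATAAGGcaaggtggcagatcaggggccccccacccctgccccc
Actg1: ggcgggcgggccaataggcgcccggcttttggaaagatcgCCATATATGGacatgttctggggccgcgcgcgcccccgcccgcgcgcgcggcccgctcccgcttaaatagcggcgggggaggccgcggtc
Acta2: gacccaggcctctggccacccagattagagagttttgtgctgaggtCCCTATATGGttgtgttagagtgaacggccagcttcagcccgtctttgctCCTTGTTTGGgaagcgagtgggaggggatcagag
The exact matches start 73 bases before the start site in Acta1, 47 in Actc1 and 90 in Actg1. An inexact match of Actc1, starting 87 bases before the start site, is left in lower case. Tpm1 and Tpm3 held matches with 1 mismatch only, and the windows of Tpm2 and Tpm4 held none. The matches are descriptions of the sequence, and binding was not measured.

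Most genes of SRF and its cofactors were not called. Of the 9 tested genes of this list, 3 were called higher and 1 lower (13.2% and 15.5% of all tested genes), with a median log2 fold change of 0.11. Srf itself was not called (log2 fold change 0.11, edgeR adjusted p = 0.220). Mrtfb, an actin-regulated SRF cofactor, was higher by 0.44 (edgeR adjusted p = 0.00182), and Fhl2, a LIM-domain SRF partner, fell by 0.82 (edgeR adjusted p = 2.09e-04). The other called genes were Elk1 (0.23) and Elk3 (0.21), SRF partners of the ETS family, and both lost the call when control replicate 1 was left out (edgeR adjusted p = 0.0848 and 0.0557), as they did without control replicate 2 or miR-322/-503 replicate 2. Elk1 also lost it without miR-322/-503 replicate 3. On log2(TPM + 1) none of the 3 higher genes passed (limma).

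Genes that set thin filament length and assembly moved in both directions. Of 14 tested genes, 7 were called higher and 5 lower (13.2% and 15.5% of all tested genes), with a median log2 fold change of 0.31. These calls include Nebl, with 0, 0 and 8 counts in the control, and Tmod2, with 21, 20 and 0 counts in the miR-322/-503 libraries. With at least 10 counts required in every library, 6 genes were called higher and 4 lower. Lmod3, a leiomodin that nucleates actin in skeletal muscle, rose from 13.4 ± 0.741 to 35.2 ± 4.08 CPM (log2 fold change 1.39, edgeR adjusted p = 8.34e-05). Nrap, an actin-binding scaffold of myofibril assembly, rose from 19.3 ± 1.63 to 43.2 ± 1.12 CPM (1.16, edgeR adjusted p = 6.24e-05). Lmod1, the leiomodin of smooth muscle, fell from 23.2 ± 2.99 to 3.10 ± 0.174 CPM (-2.91, edgeR adjusted p = 5.79e-06), in the same direction as Acta2 and Actg2. The falls were not limited to this smooth muscle gene. Lmod2, another leiomodin, fell by 0.59 (edgeR adjusted p = 4.54e-04) and Xirp1 by 0.46 (edgeR adjusted p = 0.00178). Neb encodes nebulin, the giant protein that runs along the thin filament, and its counts rose from 168 ± 12.5 to 380 ± 40.9 CPM (1.17, edgeR adjusted p = 1.11e-04). The mean transcript length behind these counts was 7864 ± 298 bases in the control and 14487 ± 580.5 bases in the miR-322/-503 cells, and per length the change of Neb was 0.27 and did not pass (limma on log2(TPM + 1), adjusted p = 0.0529).

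The lists of genes that turn filaments over or nucleate them also held calls in both directions, and the actin-folding list held 1 call. In the turnover list, 7 of 21 genes were called higher and 4 lower (median 0.15), with 4 higher when control replicate 1, control replicate 3 or miR-322/-503 replicate 3 was left out. The monomer-binding Tmsb10 had the largest rise, 0.89 (edgeR adjusted p = 0.0439), but its libraries varied widely and the call was lost on leaving out any single library other than miR-322/-503 replicate 1. Cfl2, the muscle cofilin that severs filaments, rose by 0.60 (edgeR adjusted p = 0.0147, lost without control replicate 2 or 3), Coro1c rose by 0.62 (edgeR adjusted p = 3.18e-04) and Twf2, a monomer-binding twinfilin, fell by 0.81 (edgeR adjusted p = 0.00443). In the nucleation list, 5 of 22 genes were called in each direction (median 0.19), with 3 lower when control replicate 2, control replicate 3, miR-322/-503 replicate 2 or miR-322/-503 replicate 3 was left out. The nucleation split also moved with the method, to 9 higher and 5 lower under DESeq2 and 5 higher and 1 lower under limma on log2(TPM + 1). The formins Daam2 and Daam1 had the largest rises, from 89.7 ± 1.98 to 250 ± 5.02 CPM for Daam2 (1.48, edgeR adjusted p = 3.34e-06) and by 0.90 for Daam1 (edgeR adjusted p = 1.69e-04). The nucleator Cobl rose by 0.64 (edgeR adjusted p = 0.00254, limma on log2(TPM + 1) adjusted p = 0.0532) and the formin Diaph3 fell by 0.63 (edgeR adjusted p = 0.00738). Among the 8 subunits of the CCT chaperonin, which folds actin, 1 was called higher (Cct6a, 0.23, edgeR adjusted p = 0.0195) and 0 lower. The call of Cct6a was lost without control replicate 2 or 3 or without miR-322/-503 replicate 1 or 3. Across these 5 lists 23 of 74 tested genes (31.1%) were called higher and 15 (20.3%) lower, where 13.2% and 15.5% of all tested genes were. The calls include Nebl and Tmod2, which had few counts in 1 group. With at least 10 counts required in every library, 23 were called higher and 14 lower. Under limma the counts were 15 higher and 10 lower on log2(TPM + 1), and 13 higher and 11 lower on log2(TPM + 0.1).

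**Figure D5:**
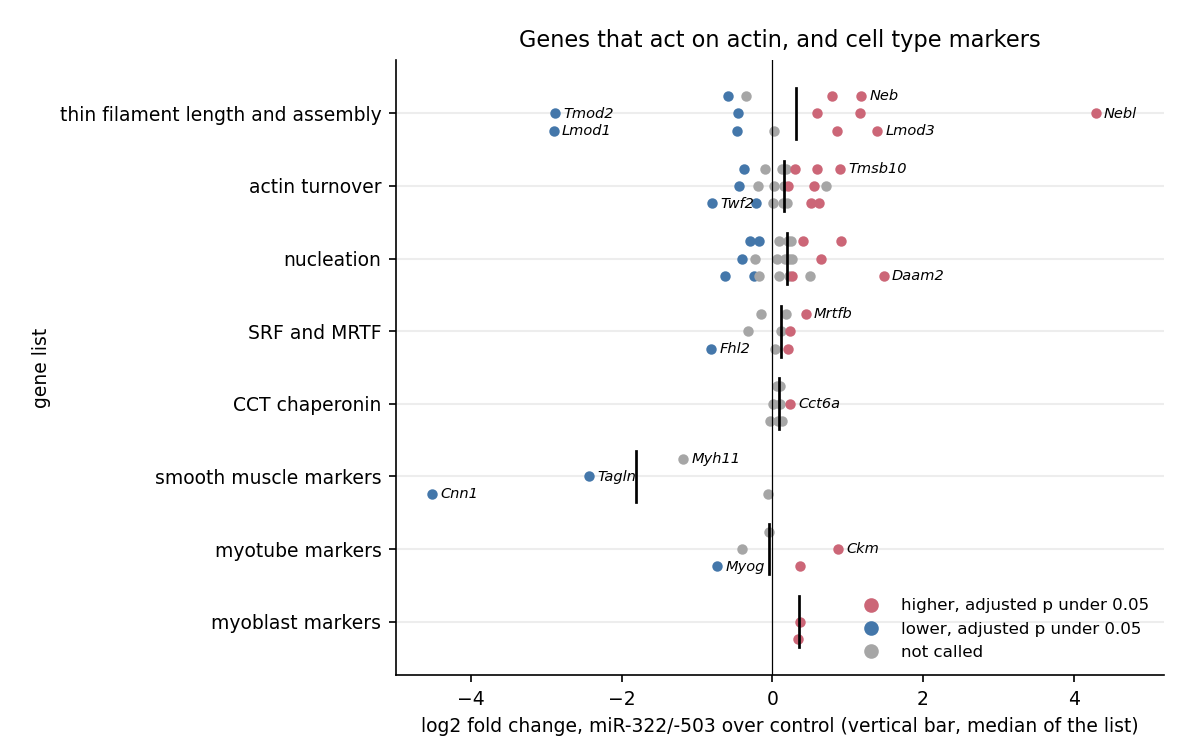
Log2 fold change (miR-322/-503 over control) of each tested gene of 5 lists that act on actin and of 3 marker lists, with colors for the edgeR call and a black bar at each list's median. The regulator lists straddle 0, with medians of 0.09 to 0.31, and the smooth muscle markers have a median of -1.81. The point of Nebl rests on control libraries with 0, 0 and 8 counts, and that of Tmod2 on miR-322/-503 libraries with 21, 20 and 0 counts.

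The smooth muscle markers Cnn1 and Tagln also fell in the miR-322/-503 cells. Cnn1 (calponin) went from 34.8 to 1.53 CPM (log2 fold change -4.52, edgeR adjusted p = 2.62e-06) and Tagln (transgelin) from 804 to 148 CPM (-2.44, edgeR adjusted p = 8.96e-07). Of the 4 tested genes of the 5 in this list, 2 were called lower and 0 higher (15.5% and 13.2% of all tested genes), and the summed level of the list was 1006 to 1056 CPM in the control and 343.8 to 350.0 CPM in the miR-322/-503 libraries. Smtn (-0.06) was not called. Myh11, the defining myosin of smooth muscle, was not called either (-1.18, edgeR adjusted p = 0.140), with 5 to 24 counts, and Myocd, its defining transcription factor, had 0 to 29 counts in the 6 libraries. In bulk RNA, fewer cells of a type and less RNA per cell cannot be told apart, and the part of such cells in the result was not tested.

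The markers of the labelled cell type were present. Of the 5 myotube markers, Ckm (muscle creatine kinase) rose by 0.87 (edgeR adjusted p = 9.57e-05), Mymx (a fusion protein) rose by 0.37 (edgeR adjusted p = 0.0196) and Myog (myogenin) fell by 0.74 (edgeR adjusted p = 6.65e-04), while Myh3 (-0.05) and Mymk (-0.41) were not called. The call of Mymx was lost without control replicate 1 or 3 or without miR-322/-503 replicate 2 or 3. The summed level of the 5 was 991 to 1019 CPM in the control and 827 to 998 CPM in the miR-322/-503 libraries. The 2 myoblast markers Myod1 (0.37) and Myf5 (0.35) were both called higher. Myod1 lost the call on leaving out any single miR-322/-503 library. It also lost it under limma on log2(TPM + 1) and log2(TPM + 0.1) (limma adjusted p = 0.0593 and 0.0585). For comparison, 13.2% of all tested genes were called higher and 15.5% lower. Markers of endothelial cells, leukocytes and adipocytes had at most 12, 6 and 5 counts in any library and were not tested.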

How the data were processed

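RNA-seq libraries of 3 control and 3 miR-322/-503 samples were analysed. According to the study's methods and the submitters' processing notes, Trim Galore was used by the authors to filter reads, HISAT2 to align to GRCm38 and StringTie to make count tables; versions, annotation release and strandness are not given in the sources used here. The deposited table held estimated counts per gene as whole numbers, not normalized. The deposited files of single libraries held FPKM, TPM and coverage, a signal along the gene, all computed by the authors.

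Totals were 73532084 to 92157388 estimated counts per library. Coverage of single-transcript genes gave 74.98 to 74.99 bases per count and a peak of 300 covered bases for low genes, so 1 read pair was about 4 counts. Divided by 4, the totals correspond to an estimated 18383021 to 23039347 pairs assigned to genes per library. Pairs outside genes or not aligned are not in these numbers. Replicates differed by more than sampling noise (chi-square per degree of freedom 13.4 to 19.4), so none was taken for a copy. All intervals rest on the spread between libraries.

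Counts were tested with edgeR 4.0.16 in R 4.3.3 (filterByExpr, TMM factors 0.977 to 1.03, glmQLFit, glmQLFTest, Benjamini-Hochberg over 18140 genes). CPM are TMM-scaled, and values are mean ± SD. The standard error is the log2 fold change divided by the square root of F. Shares and orders used the deposited TPM. Alternatives were DESeq2 1.42.0, other scaling factors and filters, counts divided by 4, a replicate block, limma 3.58.1 on log2(TPM + 1) and log2(TPM + 0.1), shares of coverage or counts, and leaving out each library. The steps were tested on simulated data.

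The members and lists were chosen with earlier results of these data known. Named genes are all members and, per list, up to 4 called genes with the largest absolute log2 fold change and at least 10 CPM in the higher group, plus marker genes. Srf, Lmod2, Xirp1, Nebl and Tmod2 were named after their values were seen. Mean transcript length is the count over FPKM, scaled per library on 1072 to 1161 genes with 1 transcript in GENCODE M21, of which at least 98.3% fell within 2% of the scale. For Tpm4 it was 2156 bases, above the longest M21 transcript of 2128, so the authors' annotation differed from M21 there. Figures were drawn with matplotlib.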

Additional observations from a re-analysis of the deposited data

How the results depend on the processing

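Acta2, Actg2, Tpm1 and Tpm4 were called lower under every alternative run, with log2 fold changes of -1.14 to -1.08, -3.28 to -3.15, -0.55 to -0.43 and -0.34 to -0.29, and 0 members were called higher under any. With the replicate block 5 members were lower, the fifth being Actg1 (-0.14, edgeR adjusted p = 0.0294), and no other member changed its call. The labels do not tie replicate numbers to a shared culture or day, and the deviations of same-numbered libraries correlated by 0.13, 0.07 and 0.05, too little to take them as pairs, though each library correlated best with its own number, a hint from the data and not the design. Actb changed sign, without a call, under limma on log2(TPM + 1) and log2(TPM + 0.1) (-0.067 in both), and ranged from -0.047 to 0.08 when single libraries were left out, below 0 without control replicate 1 and without miR-322/-503 replicate 3 (-0.006). The actin regulator genes called higher numbered 15 under limma on log2(TPM + 1) and 13 with log2(TPM + 0.1), against 23. The sarcomeric share of actin differed by 10.2 points as a share of coverage, against 7.80, and the muscle-type share by -12.2 points as a share of estimated counts, against -10.5. Within lists, 9 nucleation genes were higher under DESeq2 and with the replicate block, and under limma on log2(TPM + 1) 3 turnover genes were higher and 1 nucleation gene lower. The causes were not tested. The Tpm1 length difference was -142.2 to -106.6 bases when single libraries were left out, a check added after seeing the data. Counts were too few for statements on the microRNA genes, the markers of other cell types and low genes of the lists such as Kbtbd13, Myocd and Nebl, and windows shared with other genes limited Actg1 and Tpm3.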
